A study of Mus musculus with 6 samples.

Results

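Of the 55492 gene rows in the expression table, 92 carried a mouse potassium channel symbol, meaning Kcn followed by the 1 or 2 letters of a subfamily and a number, and each symbol occurred once. The mRNA came from O4-positive cells of the oligodendrocyte lineage, pulled from whole mouse brain with antibody-coated magnetic beads at postnatal day 16. There were 3 wild-type (WT) and 3 Npc1-/- samples. Npc1 encodes a lysosomal protein that exports cholesterol, and the Npc1-/- mice were homozygous for the nih null allele, whereas the WT mice had the normal gene; both groups were F1 hybrids of BALB/cJ and C57BL6/J parents carrying that allele, and the allele was present in all cells of the animal. The comparison asks which channel genes differ in level when Npc1 is missing. Values below are scaled TPM, that is the relative abundance of a gene's transcripts corrected for length, divided by a size factor for each sample, so that levels can be set beside each other between genes and between samples.

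Potassium channels let potassium leave or enter a cell down its gradient, and with that they set the resting potential and end action potentials. In the oligodendrocyte lineage, inward rectifiers of the Kir family take up potassium and hold the membrane negative, while voltage-gated Kv channels are prominent in progenitors and are lowered as the cells mature. Auxiliary subunits such as the KChIPs, the Kv beta subunits and the BK beta subunits form no pore and change the gating and surface level of the pore subunits they bind.

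Npc1 itself was 41.1, 45.5 and 43.9 scaled TPM in the WT samples and 3.72, 5.17 and 4.35 in the Npc1-/- samples, so the target gene went with the genotype labels. Oligodendrocyte markers summed to 175778 to 247260 scaled TPM in WT and 221999 to 435807 in Npc1-/- samples, most of it from Mbp. None of the 12 genes on that list was at 0 in any of the 6 samples. By limma 0 of them and 0 of 8 markers of oligodendrocyte progenitors were called; at an unadjusted p under 0.05, 2 and 1 were higher and 0 and 1 lower. Markers of other cells were detected too, as none of the 8 microglial, 8 endothelial, 7 pericyte and mural or 8 Purkinje cell markers was at 0 in any sample. Which cells these transcripts came from was not tested. In a bulk sample, fewer cells of a type and less RNA per cell cannot be told apart. Npc1-/- replicate 3 stood apart in sex, with Xist at 21.4 scaled TPM and the Y-linked Ddx3y at 0, whereas Ddx3y was 16.9 to 21.9 in the other samples. Kcnd1 was the X-linked member among the genes named here. For some genes, though not for all whose values rest on this sample, the fold change without it is given as well. Sequencing depth, estimated from the spacing of low values, ran from 40250000 to 50250000 fragments per sample.

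The sequences at the start sites of 3 members are shown first, because Kcnip1 and Kcnip2 had the smallest p-values of all members and Kcna6 was one of the genes whose promoter the study examined for histone marks, data that are not analysed here. Each line gives 250 bases before and 50 after a RefSeq start on build GRCm38.p6, read 5′ to 3′ on the gene's strand, with any GC box (GGGCGG, searched on both strands) in capitals. The Kcnip1 window is the first of 3 listed starts, at chr11:33993144-33993443 on the minus strand. The Kcnip2 window, at chr19:45816014-45816313 on the minus strand, and the Kcna6 window, at chr6:126740625-126740924 on the minus strand, are the single listed starts of their genes.
Kcnip1: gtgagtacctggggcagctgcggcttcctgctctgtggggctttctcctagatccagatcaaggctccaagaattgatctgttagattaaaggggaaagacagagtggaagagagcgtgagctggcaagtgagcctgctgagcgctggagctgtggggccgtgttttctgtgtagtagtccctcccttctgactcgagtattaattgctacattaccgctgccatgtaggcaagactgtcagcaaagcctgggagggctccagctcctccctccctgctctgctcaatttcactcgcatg
Kcnip2: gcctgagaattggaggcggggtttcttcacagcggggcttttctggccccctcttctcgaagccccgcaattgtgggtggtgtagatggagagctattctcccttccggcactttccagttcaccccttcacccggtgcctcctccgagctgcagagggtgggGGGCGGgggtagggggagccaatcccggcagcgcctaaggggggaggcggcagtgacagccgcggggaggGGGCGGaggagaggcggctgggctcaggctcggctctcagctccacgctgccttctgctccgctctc
Kcna6: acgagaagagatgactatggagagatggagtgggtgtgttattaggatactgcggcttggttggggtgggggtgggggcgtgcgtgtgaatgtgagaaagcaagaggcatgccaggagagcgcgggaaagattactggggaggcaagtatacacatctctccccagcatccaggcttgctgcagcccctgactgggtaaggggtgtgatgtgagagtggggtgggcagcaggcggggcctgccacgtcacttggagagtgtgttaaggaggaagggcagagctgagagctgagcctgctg
The Kcnip2 window held 2 GC boxes and 18 CpG dinucleotides, the Kcnip1 window held 7 CpG and the Kcna6 window 8, with no GC box in these letters. Of the other Kcnip1 starts, not shown, the second held 1 GC box and 16 CpG, and the third 0 GC boxes and 4 CpG. Among 32851 listed promoters of the genome, 35.7% held a GC box, and the median was 7 CpG. Windows were listed for 67 of the 92 members, and 44 of their 92 windows (47.8%) held a GC box, with a median of 9 CpG. Another motif searched, TTCAGCACC from the RE1 element, on both strands, was in 1 member window, that of Kcnh6, and in 0.371% of all windows. The letters TATAAA were in 5 member windows (5.43%) and in 13.6% of all windows, on either strand. A match is a description of letters only, and gene-level values do not tell which start was used.

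The level of the members spanned a wide range. Kcnj10, which encodes Kir4.1, the main inward rectifier of glia, was at 111, 123 and 138 scaled TPM in WT and at 116, 131 and 170 in Npc1-/- samples. It held 28.7% to 38.4% of the summed level of all members in each sample, and no other member exceeded 30.4 in any sample. Next in order of mean TPM were Kcnip3, Kcnmb4, Kcnab2, Kcne2, Kcnk1, Kcnj13, Kcna1, Kcna6 and Kcnj16, and the ranges of each neighbouring pair among these overlapped. In all, 9 members had a mean TPM over 10. At the low end, 32 members had a mean TPM under 0.5 and were not tested, and 2 of them, Kcnk16 and Kcnmb3, were listed at 0 in every sample. The remaining 60 entered the test. At the estimated depth a TPM of 0.5 corresponded to 40.4 to 54.0 fragments for a transcript of 3000 bases, so values near that limit carried counting error of their own.

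**Figure D1:**
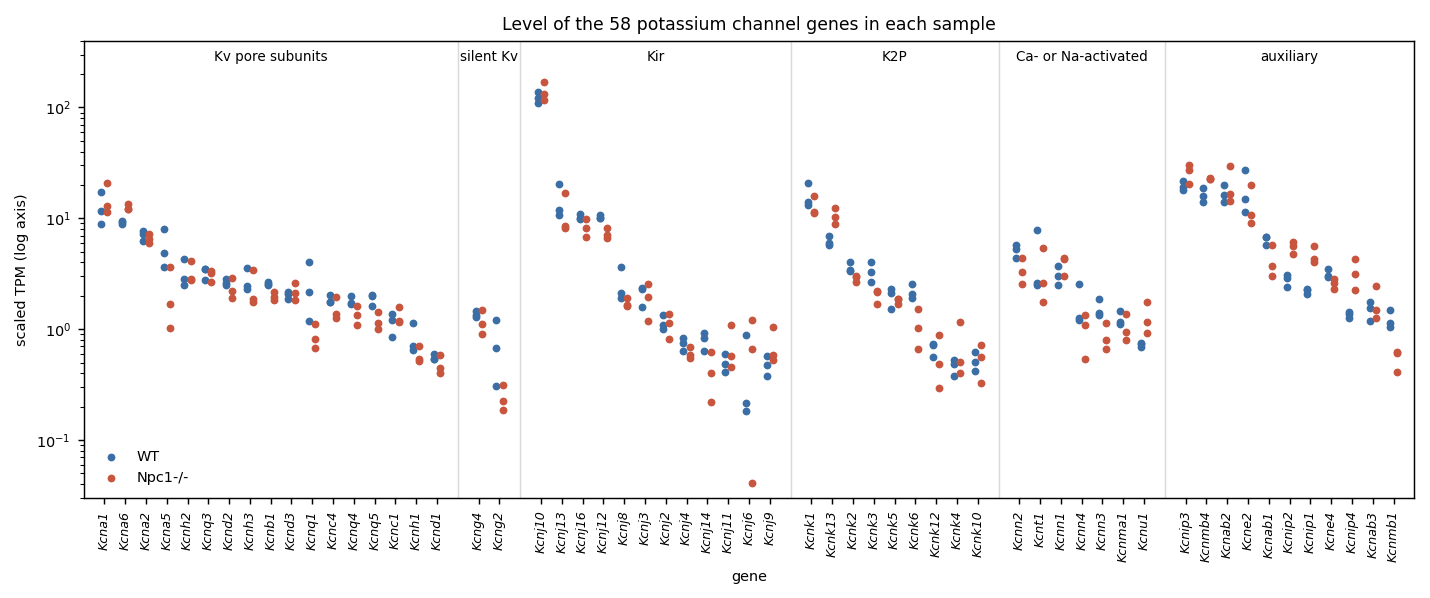
Scaled TPM of 58 tested members (log axis) in the 3 WT samples (blue) and the 3 Npc1-/- samples (red), ordered by mean TPM within each class. Kcnj10 lies above all other members, while most Kv and K2P genes lie below 10.

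Of the 60 tested members, 1 passed the test, Kcnip1, which rose in Npc1-/- cells (limma, Benjamini-Hochberg adjusted p = 0.0489). A call needed an adjusted p under 0.05 and a log2 change of 0.1 or more in size. Of all 15245 tested genes, 0.4% were called higher and 0.413% lower. At an unadjusted p under 0.05, 8 members (13.3%) were higher and 11 (18.3%) lower, against 10.6% and 11.6% of all tested genes. The 3 Npc1-/- values lay above all 3 WT values for 7 members (11.7%) and below them for 14 (23.3%), against 13.3% and 14.2% of all tested genes. The shares of higher members were thus near the background. The median log2 fold change was -0.16 over the 60 members and 0.01 over all tested genes, and 37 members had a negative fitted value. These counts depend on the scaling. On TPM without size factors, where the median of all genes moved to -0.33, 3 members were higher and 18 lower at an unadjusted p under 0.05. The median also changed sign when genes with a mean TPM under 5 were left out, to 0.15 over 15 members.

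Counts by class can be set beside all tested genes, of which 10.6% were higher and 11.6% lower at an unadjusted p under 0.05. Among 11 tested auxiliary subunits, 5 were higher and 2 lower at an unadjusted p under 0.05, with a median log2 fold change of 0.21. All 4 KChIP genes were among the 5 higher ones. Among 19 tested Kv pore subunits, 1 was higher and 4 were lower, with a median of -0.12. The 12 tested Kir genes counted 0 higher and 1 lower (median -0.14), and the 9 tested K2P genes 1 higher and 2 lower (median -0.19). The 7 tested channels activated by calcium or sodium counted 1 higher and 2 lower (median -0.31). Of 10 silent Kv subunits, which only work in partnership with other Kv subunits, 2 were tested and both overlapped between the groups. Differences between classes were not tested.

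**Figure D2:**
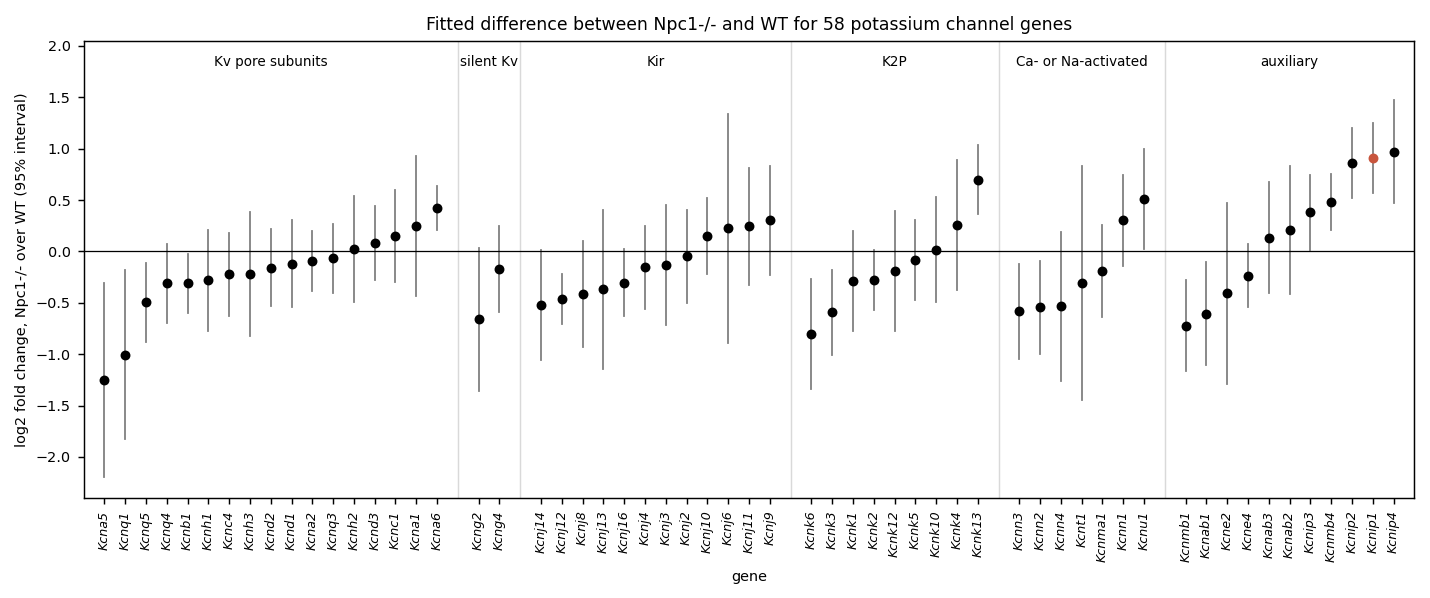
Log2 fold change of Npc1-/- over WT on the log2(scaled TPM + 0.5) scale for 58 tested members, with the 95% interval of the limma fit as a line; the called gene is in red and genes are ordered within each class. Kcnip4, Kcnip1 and Kcnip2 are the 3 highest values and Kcna5 and Kcnq1 the 2 lowest.

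The KChIP genes gave the clearest pattern. KChIPs are small calcium-binding proteins that attach to Kv4 channels, bring them to the surface and slow their inactivation. Kcnip1 (ENSMUSG00000053519, chr11:33629339-33993152, minus strand, GRCm38) was 2.08, 2.25 and 2.31 scaled TPM in WT and 4.32, 4.02 and 5.59 in Npc1-/- samples. The groups did not overlap, and the mean went from 2.22 ± 0.117 to 4.64 ± 0.830 (SD, n = 3 each). The log2 fold change was 0.91 ± 0.15 (SE), with a 95% interval of 0.57 to 1.25. This call was close to the threshold. It was kept without Npc1-/- replicate 3 (adjusted p = 0.0431), and was lost without WT replicate 1, 2 or 3 (adjusted p = 0.160, 0.157 and 0.0972) and without Npc1-/- replicate 1 or 2 (adjusted p = 0.0710 and 0.187). On TPM without size factors the fold change was 0.59 (adjusted p = 0.144), or 0.92 above the median of all genes there.

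Kcnip2 (chr19:45791839-45816061, minus strand) was 2.40, 3.10 and 2.90 scaled TPM in WT and 4.72, 6.18 and 5.63 in Npc1-/- samples, again with no overlap. Its log2 fold change was 0.86 ± 0.14 (limma, adjusted p = 0.0503), just outside the threshold. Kcnip4 (chr5:48389502-49524907, minus strand) was 1.27, 1.36 and 1.43 in WT and 3.13, 2.25 and 4.32 in Npc1-/- samples, and its log2 fold change was 0.97 ± 0.21 (limma, adjusted p = 0.0650). Kcnip4 values therefore lay apart as well, but with a wider spread among the Npc1-/- samples. Kcnip3, whose product is also known as the transcriptional repressor DREAM, was the most abundant KChIP at 21.8, 19.2 and 18.1 in WT and 30.4, 27.2 and 20.6 in Npc1-/- samples. Its groups overlapped through Npc1-/- replicate 3, and its log2 fold change was 0.38 ± 0.16 (limma, adjusted p = 0.206). All 4 KChIP genes kept a positive fitted value in every alternative in which they were tested, down to 0.02 for Kcnip3 on TPM without size factors.

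The Kv4 pore genes, which the KChIPs serve, gave no such difference. Kcnd2, encoding Kv4.2, was 2.81, 2.59 and 2.50 scaled TPM in WT and 2.89, 2.20 and 1.93 in Npc1-/- samples, with a log2 fold change of -0.16 and a 95% interval of -0.53 to 0.21. Kcnd3 and Kcnd1, named here after their values were seen, had log2 fold changes of 0.08 and -0.12, and their groups overlapped. Summed over the family, KChIP level was 24.7 to 27.6 in WT and 36.1 to 42.6 in Npc1-/- samples, while the 3 Kcnd genes together were 4.92 to 5.57 and 4.17 to 6.10. Kcnip3, whose groups overlapped, held most of the KChIP sum in every sample. The ratio of both sums, in which the scaling cancels, was 4.95, 4.98 and 5.02 in WT and 6.99, 8.34 and 8.66 in Npc1-/- samples. The WT ratios were nearly identical and the Npc1-/- ratios were all higher. This ratio was formed after the values were seen and carries no test.

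**Figure D3:**
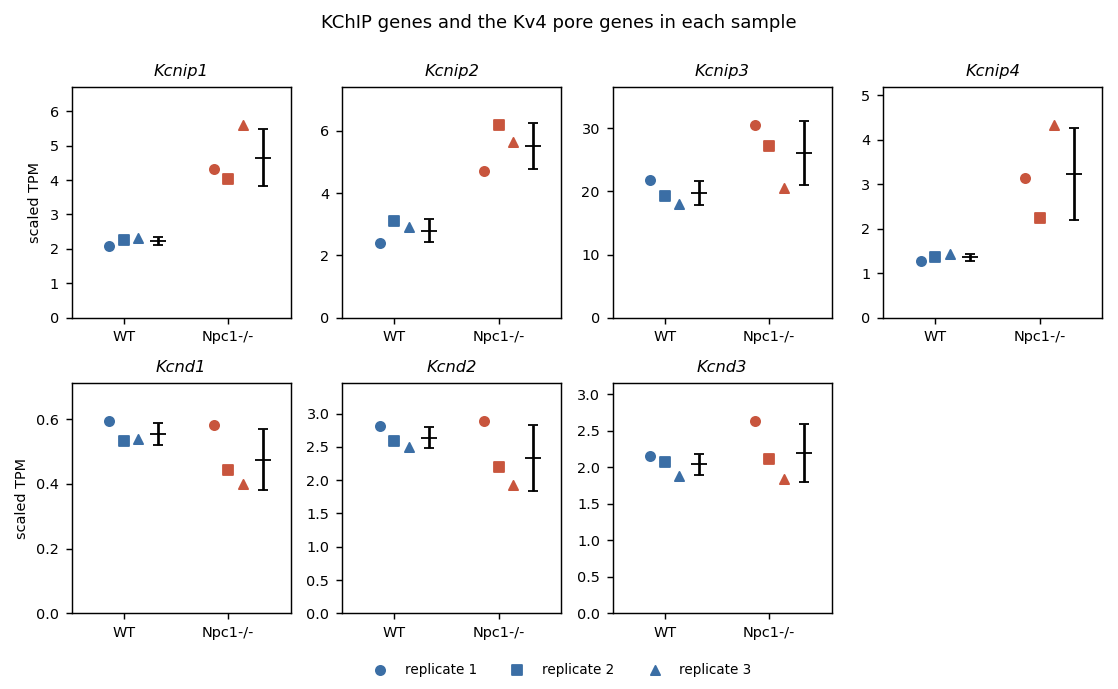
Scaled TPM of the 4 KChIP genes and the 3 Kv4 pore genes in each sample, with the replicate number as the symbol, and the mean with its SD (n = 3) as a black bar. Kcnip1, Kcnip2 and Kcnip4 show no overlap between WT and Npc1-/-, and the Kcnd genes overlap.

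KChIPs are best known from neurons, and neuronal markers are set beside them. Fitted values were positive for 7 of 8 Purkinje cell markers and 11 of 12 pan-neuronal markers. Of these lists, 6 and 4 markers lay higher with no overlap and 1 and 1 lower, against 13.3% and 14.2% of all tested genes. Of 8 Purkinje cell markers, 3 were called higher and 0 lower, and their summed level was 225 to 258 scaled TPM in WT and 625 to 744 in Npc1-/- samples, most of it from Pcp2 at 164 to 193 in WT and 511 to 614 in Npc1-/- samples. Itpr1, of the same list, was 26.4, 21.2 and 22.3 in WT and 17.6, 9.93 and 15.4 in Npc1-/- samples, lower with no overlap but not called (-0.72, limma adjusted p = 0.105), and Gad1 overlapped. Of 12 pan-neuronal markers, 2 were called higher and 0 lower (Map2 lay lower in every Npc1-/- sample, -0.31, limma adjusted p = 0.147), and the summed level was 428 to 437 in WT and 511 to 534 in Npc1-/- samples. The 7 tested granule neuron markers and 6 tested cortical projection neuron markers had 0 calls by limma, 0 genes at an unadjusted p under 0.05 and 0 whose groups lay apart. Their summed levels were 63.8 to 119 against 70.7 to 127, and 54.6 to 102 against 49.9 to 102. The part of neuronal RNA in the KChIP values was not tested.

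Among voltage-gated pore subunits, the Kv1 genes lead in oligodendrocytes and myelinated axons. Kcna6 (Kv1.6, ENSMUSG00000038077, chr6:126708329-126740674, minus strand) was 8.89, 9.54 and 9.35 scaled TPM in WT and 12.2, 12.1 and 13.5 in Npc1-/- samples. The groups lay apart, with means of 9.26 ± 0.330 and 12.6 ± 0.787 (SD, n = 3 each). The log2 fold change was 0.42 ± 0.09 (limma, adjusted p = 0.0623), which did not pass the test used here. The study, testing read counts with DESeq2, describes Kcna6 among the genes raised in Npc1-/- O4-purified cells. Its methods also list a Kcna6 probe for qRT-PCR. By that assay the study reports that several neuronal genes raised in these cells fell in cultured Npc1-/- progenitors given a histone demethylase inhibitor. It also reports rescue of neuronal genes in O4-positive cells of mice given a cyclodextrin. The limma test on TPM differs from both DESeq2 on counts and qRT-PCR. A gene on the other strand, Gm26673, shares 2355 of 5945 exon bases with Kcna6, and was itself at 0.201 to 0.716 scaled TPM. Reads of overlapping genes may be divided between them.

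Kcna1 (Kv1.1) and Kcna2 (Kv1.2), the juxtaparanodal axon channels, overlapped between the groups. Kcna1 was 8.82, 11.6 and 17.3 scaled TPM in WT and 11.4, 12.8 and 20.8 in Npc1-/- samples, with replicate 3 highest in each. Its log2 fold change of 0.25 became -0.01 without Npc1-/- replicate 3 and -0.12 on TPM without size factors, the latter 0.21 above the median of all genes there. Kcna2 was 6.19 to 7.76 in WT and 5.99 to 7.27 in Npc1-/- samples, with a fold change of -0.10. Kcna5 (Kv1.5, a delayed rectifier) lies in a cluster with Kcna1 and Kcna6, at chr6:126532551-126535412. It was 3.61, 4.87 and 7.93 in WT and 1.03, 1.67 and 3.66 in Npc1-/- samples, again highest in replicate 3 of each. Its groups overlapped slightly, and its log2 fold change of -1.25 ± 0.40 was the lowest of all members (limma, adjusted p = 0.131). On TPM without size factors it was called lower (-1.58, adjusted p = 0.0178). Kcna5 and Kcna6 of this cluster thus had fitted values of opposite sign, though neither passed the test on scaled TPM.

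The Kv beta subunits, which bind Kv1 channels, also had values of opposite sign. Kcnab1 was 6.72, 5.72 and 6.80 scaled TPM in WT and 3.74, 3.01 and 5.74 in Npc1-/- samples, with a log2 fold change of -0.61 ± 0.21 (limma, adjusted p = 0.153). Without Npc1-/- replicate 3 it was called lower (-0.85, adjusted p = 0.0439). Kcnab2, the major brain form, was 13.97, 16.4 and 19.9 in WT and 16.7, 14.4 and 29.4 in Npc1-/- samples, with a fold change of 0.21, and of -0.10 without Npc1-/- replicate 3. The ratio of Kcnab1 to Kcnab2 was 0.481, 0.350 and 0.342 in WT and 0.224, 0.209 and 0.195 in Npc1-/- samples. That ratio was lower in every Npc1-/- sample, and was also chosen after the values were seen.

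The other Kv genes were lower in level. Kcnc1, a Kv3 gene of fast-firing neurons, had a log2 fold change of 0.15, which became -0.11 on TPM without size factors, 0.22 above the median of all genes there. Kcnq5, a pore subunit of the M-current, was 1.61, 2.04 and 1.99 scaled TPM in WT and 1.43, 1.146 and 1.005 in Npc1-/- samples, with a fold change of -0.50 ± 0.16 (limma, adjusted p = 0.138). Kcnq1, an epithelial and cardiac member of the Kcnq subfamily, was 4.03, 2.15 and 1.17 in WT and 1.11, 0.819 and 0.674 in Npc1-/- samples, with a fold change of -1.005 ± 0.351 (limma, adjusted p = 0.153), or -0.63 without WT replicate 1. Groups of both genes did not overlap, but in Kcnq1 the WT samples spread more widely than the groups were apart. Across the Kcnq subfamily, 3 of 5 tested genes lay apart between the groups, all of them lower, against 14.2% of all tested genes.

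Inward rectifiers included the most abundant channel gene and its partner. Kcnj10 (chr1:172341210-172374085) overlapped between the groups, with a log2 fold change of 0.15 (95% interval -0.22 to 0.52), which became -0.22 on TPM without size factors (0.11 above the median of all genes there), -0.01 with quantile normalization and -0.01 without Npc1-/- replicate 3. Kcnj16 encodes Kir5.1, which joins Kir4.1 in heteromeric channels. It was 9.81, 10.01 and 10.9 scaled TPM in WT and 6.81, 8.22 and 9.78 in Npc1-/- samples, just apart, with a fold change of -0.30 ± 0.14 (limma, adjusted p = 0.253). The ratio of Kcnj16 to Kcnj10 within a sample was 0.0885, 0.0816 and 0.0788 in WT and 0.0587, 0.0627 and 0.0577 in Npc1-/- samples. No Npc1-/- ratio reached the lowest WT ratio, and this ratio too was formed after the values were seen. Both genes are also strong in astrocytes, whose 8 markers had 0 calls by limma (1 higher and 3 lower at an unadjusted p under 0.05), at a summed level of 417 to 485 in WT and 289 to 524 in Npc1-/- samples. Of these, 5 markers lay lower with no overlap and 1, Gfap, lay higher, and without Gfap, left out after its values were seen, the sum was 316 to 404 in WT and 178 to 253 in Npc1-/- samples. The astrocyte part in these values was not tested.

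Kcnj12 (Kir2.2, chr11:61022564-61071131) had the smallest p of the members lower in Npc1-/- cells. It was 10.7, 10.02 and 9.985 scaled TPM in WT and 8.13, 7.15 and 6.66 in Npc1-/- samples, with means of 10.2 ± 0.416 and 7.31 ± 0.7503 (SD, n = 3 each). The groups lay apart, and the log2 fold change was -0.46 ± 0.11 (limma, adjusted p = 0.0687), short of the threshold. Another Kir gene, Kcnj8, belongs with vessels and is described with the vessel genes.

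Among K2P channels, which carry background potassium current, Kcnk13 had the smallest p-value. Kcnk13 (THIK-1, chr12:99964499-100062682) sets the resting potential of microglia. It was 5.80, 6.05 and 6.95 scaled TPM in WT and 8.84, 12.4 and 10.4 in Npc1-/- samples, with no overlap. The log2 fold change was 0.70 ± 0.14 (limma, adjusted p = 0.0590). Of 8 microglial markers, 1 was called lower (Tmem119), 7 were lower at an unadjusted p under 0.05 and 0 higher, and their summed level was 215 to 333 in WT and 102 to 190.5 in Npc1-/- samples. Kcnk13 and the microglial markers thus had opposite signs. Which cells the Kcnk13 transcripts came from was not tested.

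Of the other K2P genes, Kcnk6 and Kcnk3 had the smallest p-values, and neither passed the test. Kcnk6 (TWIK-2) was 2.53, 1.92 and 2.09 scaled TPM in WT and 0.663, 1.03 and 1.51 in Npc1-/- samples, with a log2 fold change of -0.80 ± 0.23 (limma, adjusted p = 0.10), and it was called lower on TPM without size factors (adjusted p = 0.0322). Kcnk3 (TASK-1, an acid-sensitive leak channel) was 4.04, 2.66 and 3.30 in WT and 2.19, 1.696 and 2.19 in Npc1-/- samples, with a fold change of -0.59 ± 0.17 (limma, adjusted p = 0.109). In both genes the groups did not overlap. Kcnk1 (TWIK-1), the most abundant K2P gene, was 20.7, 13.3 and 13.9 in WT and 16.1, 11.5 and 11.1 in Npc1-/- samples. It overlapped, with replicate 1 highest in each group, and its log2 fold change of -0.29 became -0.094 without WT replicate 1.

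The BK channel is opened by calcium and by voltage together. Its pore gene Kcnma1 was low, at 1.12 to 1.44 scaled TPM in WT and 0.807 to 1.36 in Npc1-/- samples, with a log2 fold change of -0.19. Its brain beta subunit Kcnmb4 was far more abundant. Kcnmb4 was 15.9, 14.02 and 18.8 in WT and 23.1, 22.6 and 22.5 in Npc1-/- samples, with a fold change of 0.48 ± 0.12 (limma, adjusted p = 0.0755) and groups that did not overlap. Per length, Kcnmb4 stood at 13.8, 12.5 and 13.0 times Kcnma1 in WT and at 24.7, 28.1 and 16.5 times in Npc1-/- samples. Every Npc1-/- ratio was above the WT ratios, as chosen after the values were seen. A pair of antisense genes, Kcnmb4os1 and Kcnmb4os2, share 355 and 693 of its 3324 exon bases.

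The smooth muscle beta subunit Kcnmb1 had the opposite sign. Kcnmb1 was 1.498, 1.04 and 1.146 scaled TPM in WT and 0.608, 0.409 and 0.619 in Npc1-/- samples, with a log2 fold change of -0.72 ± 0.19 (limma, adjusted p = 0.0867). It lies at chr11:33963013-33973641 on the plus strand, inside the span of Kcnip1 on the minus strand, so these overlapping loci differed in direction. Kcnn3 (SK3, a small-conductance calcium-activated channel) was 1.87, 1.41 and 1.35 in WT and 1.13, 0.807 and 0.661 in Npc1-/- samples, with a fold change of -0.58 ± 0.20 (limma, adjusted p = 0.141). Kcnu1 (Slo3), best known from sperm, was low throughout, at 0.695 to 0.7502 in WT and 0.922 to 1.74 in Npc1-/- samples, with a fold change of 0.51 ± 0.21 (limma, adjusted p = 0.203).

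**Figure D4:**
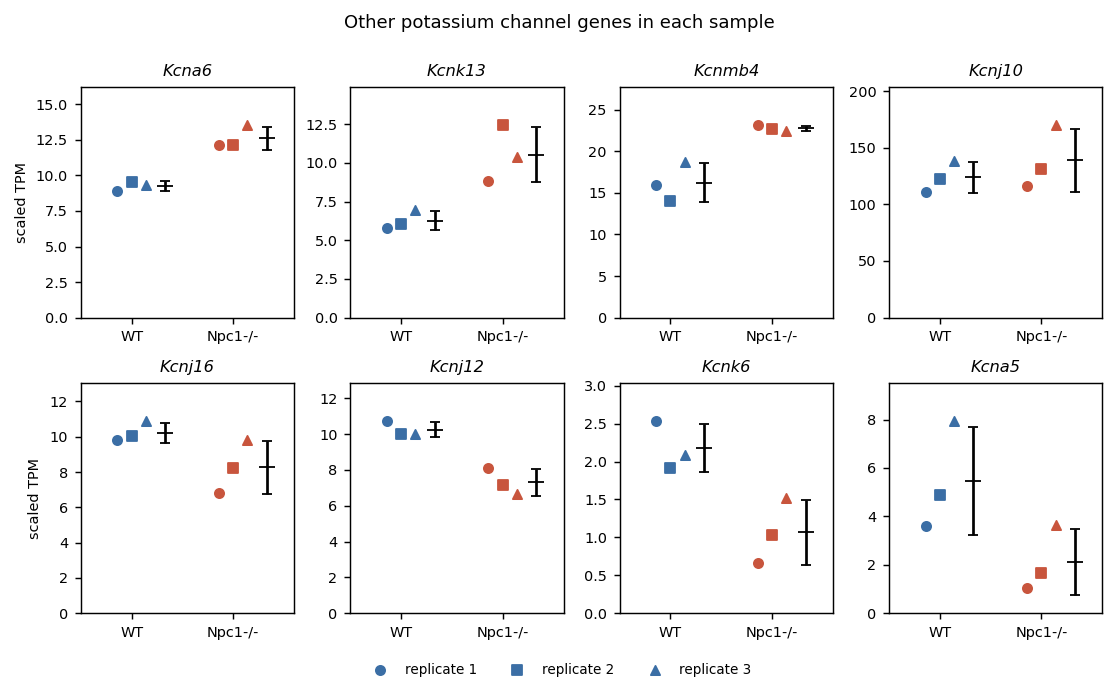
Scaled TPM of 8 further members in each sample, with the replicate number as the symbol, and the mean with its SD (n = 3) as a black bar. Kcna6, Kcnk13 and Kcnmb4 lie higher in all Npc1-/- samples, Kcnj12, Kcnj16 and Kcnk6 lower, and Kcnj10 and Kcna5 overlap.

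Kcnj8 and Kcnmb1 are known from vessel walls, and neither passed the test. Kcnj8 encodes Kir6.1, the pore of the ATP-sensitive potassium channel of pericytes and smooth muscle, and Abcc9 its sulfonylurea receptor subunit. Kcnj8 was 3.61, 2.12 and 1.90 scaled TPM in WT and 1.61, 1.65 and 1.90 in Npc1-/- samples, so the groups touched, with a log2 fold change of -0.42 ± 0.22 (limma, adjusted p = 0.322), or -0.18 without WT replicate 1. Abcc9, named after its values were seen, was 3.07, 1.83 and 1.65 in WT and 1.09, 0.971 and 1.02 in Npc1-/- samples, with a fold change of -0.78 (limma, adjusted p = 0.0975). All 7 pericyte and mural markers lay lower in Npc1-/- samples with no overlap, 1 of them called (Notch3), and their summed level was 741 to 1023 in WT and 398 to 556 in Npc1-/- samples. Of the 8 endothelial markers, 7 lay lower with no overlap and 7 were lower at an unadjusted p under 0.05, with 0 called by limma, at a summed level of 901 to 1055 against 462.5 to 751. The vascular part in the values of Kcnj8, Abcc9 and Kcnmb1 was not tested.

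Kcne2 and Kcnj13 were highest in replicate 1 of each genotype. Kcne2 encodes a small accessory subunit and Kcnj13 encodes Kir7.1, and both are known from the epithelium of the choroid plexus. Kcne2 was 27.4, 15.1 and 11.4 scaled TPM in WT and 19.9, 10.7 and 9.17 in Npc1-/- samples. Kcnj13 was 20.6, 11.98 and 10.7 in WT and 16.9, 8.26 and 8.505 in Npc1-/- samples. In both genes the groups overlapped, with log2 fold changes of -0.41 and -0.37 (limma, adjusted p = 0.583 and 0.570), which became -0.063 and -0.093 without WT replicate 1. Neither gene passed the test. Ttr, the defining choroid plexus transcript, was 5348, 3141 and 2948 in WT and 4950, 2405 and 2443 in Npc1-/- samples. Of the 10 choroid plexus markers, a list added after values were seen, 0 were called by limma and 0 were at an unadjusted p under 0.05, and their summed level was 3883 to 6684 in WT and 3154 to 6106 in Npc1-/- samples. Ttr held most of that sum, and Enpp2, the next highest, was 808 to 1087 in WT and 651 to 956 in Npc1-/- samples. The choroid plexus part in the values of Kcne2 and Kcnj13 was not tested. Kcnj13 also shares 623 of 1270 exon bases with Gigyf2 on the other strand, a gene at 14.7 to 17.2 scaled TPM.

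**Figure D5:**
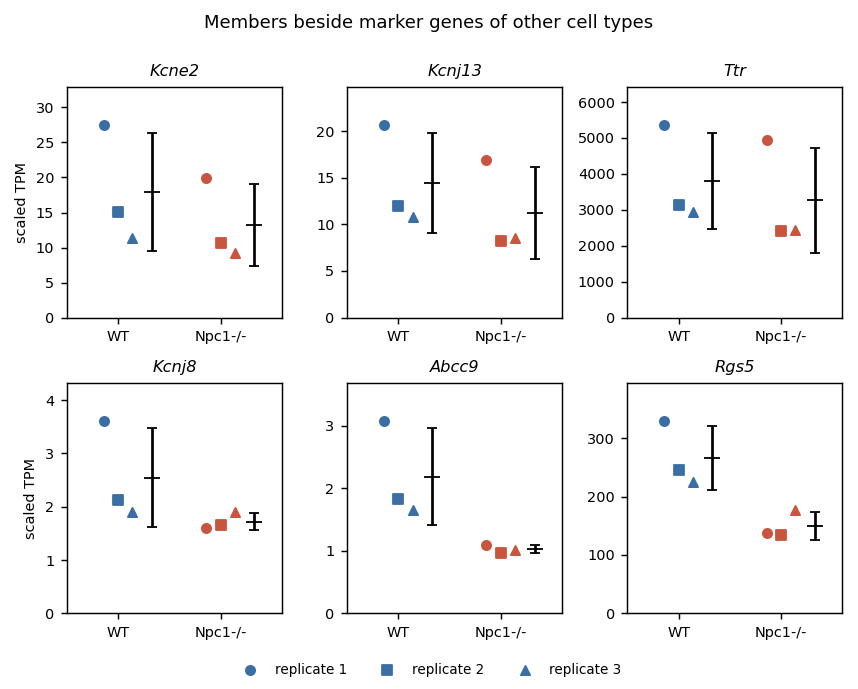
Scaled TPM of Kcne2 and Kcnj13 beside Ttr, and of Kcnj8 beside its partner Abcc9 and the pericyte marker Rgs5, in each sample; the symbol gives the replicate number and the black bar the mean with its SD (n = 3). Replicate 1 is highest in both groups for the upper 3 genes, and Abcc9 and Rgs5 are lower in every Npc1-/- sample.

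Genes that handle potassium without carrying a Kcn symbol were counted as well. Of 45 such genes on both lists, 37 were tested and 0 were called by limma, while 8 (21.6%) were higher and 5 (13.5%) lower at an unadjusted p under 0.05, against 10.6% and 11.6% of all tested genes. Their median log2 fold change was 0.01. Among pumps and cotransporters, the sodium pump beta subunit Atp1b2 was 192, 146 and 151 scaled TPM in WT and 87.9, 99.3 and 119 in Npc1-/- samples, with a fold change of -0.67 ± 0.15 (limma, adjusted p = 0.0678). It was lower in every Npc1-/- sample. Another beta subunit, Atp1b3, was 58.0, 64.6 and 69.7 in WT and 88.9, 106 and 137 in Npc1-/- samples (0.76, adjusted p = 0.0623), which was the opposite direction.

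Among channel partners, Hcn2, which encodes a cation channel opened by hyperpolarization, was 55.6, 73.5 and 108 scaled TPM in WT and 125, 184 and 258 in Npc1-/- samples, with a log2 fold change of 1.24 ± 0.31 (limma, adjusted p = 0.0818). The ankyrins Ank3 and Ank2, which anchor channels to the cytoskeleton, had fold changes of 0.53 and 0.39 (limma, adjusted p = 0.0823 and 0.0853). All 3 genes were higher in every Npc1-/- sample than in any WT sample. Lgi3, a secreted protein of the Kv1 complex, was 103 to 108 in WT and 100 to 117 in Npc1-/- samples, and its groups overlapped.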

How the data were processed

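RNA of O4-positive brain cells from 3 WT and 3 Npc1-/- mice was sequenced, one library per mouse. The deposited table holds TPM and FPKM values per gene, which the authors made from paired-end reads; per the labels the processing notes list cutadapt 2.3, FastQC 0.11.8, STAR 2.7.8a, RSEM 1.3.3 and MultiQC 1.7 on GRCm38, whereas the study's methods name other trimming and counting tools, so the step that gave TPM is not fully settled. Whether counting used strand is not given in the sources used here.

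Values were divided by median-of-ratios size factors (0.727 to 1.30) and tested as log2(TPM / size factor + 0.5) with limma 3.58.1 (lmFit, eBayes with trend, two-sided, Benjamini-Hochberg) in R 4.3.3, over the 15245 genes whose mean TPM reached 0.5. Fold changes are on that scale, which understates the change of low genes. Error values after fold changes are SE. The script was tested on simulated data. Positions come from GENCODE M21 (GRCm38), the build of the files, and start sequences from RefSeq. Members and lists were chosen with earlier results of these data known. Named were called members, the 10 of highest mean TPM, the 8 of smallest p in each direction and 15 fixed ones; of the potassium handling lists, the 3 highest and the 3 of smallest p. Some genes that these rules name are not reported here. Depth was estimated from FPKM spacing, so intervals and limits that need counts are not given. Alternatives were other scalings, pseudocounts, filters, limma settings and leaving out samples.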

Additional observations from a re-analysis of the deposited data

How the results depend on the processing

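With 3 samples a group, 1 call near the threshold and levels of a few TPM, the number of called members moved with most choices. The count of 1 became 4 on TPM without size factors, 13 with the replicate number as a block, 2 with quantile normalization, 2 with a mean TPM of at least 5 and 2 without chromosomes X, Y and M. Over all genes, the 124 calls among 15245 became, in the same order, 924, 2011, 225, 447 among 9150 and 163 among 14717. The count of members became 0 with a pseudocount of 1, with no filter, without the limma trend and with robust limma, and 0 to 2 when 1 sample was left out. Calls over all genes were 127 with a pseudocount of 1, 21 among 28469 with no filter, 42 without the trend and 117 with robust limma. The 19 members at an unadjusted p under 0.05 became 6 with a mean TPM of at least 5, where 15 members were tested, and 11 to 19 when 1 sample was left out, the lowest without Npc1-/- replicate 2. The median of -0.16 became -0.43 on TPM without size factors (-0.10 relative to all genes), -0.069 with no filter, 0.15 with a mean TPM of at least 5, -0.077 after a transcript length curve and -0.18 to -0.11 when 1 sample was left out. The 0 potassium handling genes called became 5 on TPM without size factors, 1 with quantile normalization, 1 with a mean TPM of at least 5, 11 with the replicate block and 0 to 2 when 1 sample was left out, where only leaving out Npc1-/- replicate 3 gave any. The cause of these moves was not tested.

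On TPM without size factors, where the median of all genes was -0.33, values below 0 in place of above were Kcna1 at -0.12, Kcnab2 at -0.16, Kcnc1 at -0.11 and Kcnj10 at -0.22, which relative to that median were 0.21, 0.17, 0.22 and 0.11 and so kept their sign. Other sign changes were Kcnj10 at -0.0075 with quantile normalization, and Kcna2 at 0.021 after the length curve. When 1 sample was left out, the values ran from -0.012 to 0.49 for Kcna1, -0.10 to 0.41 for Kcnab2 and -0.0056 to 0.27 for Kcnj10. The other 498 values of the members named here under alternatives kept their sign. Replicate numbers 1 to 3 occur in both genotypes, but nothing states that they pair the mice, and the correlations of same-numbered deviations were 0.41, 0.06 and 0.33, so the pairing was not taken as given. The block called 2011 of the 15245 tested genes. Among members these were Kcna5, Kcnip2, Kcnip1, Kcnk13, Kcnip4, Kcnj12, Kcna6, Kcne2, Kcnk3, Kcnmb4, Kcnq1, Kcnmb1 and Kcnj13.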
